A study of Nicotiana benthamiana with 9 samples.

Results

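Small RNA along a green fluorescent protein (GFP) transgene was compared between Nicotiana benthamiana leaves sprayed with the siRNA siR739 and leaves sprayed with the siRNA siR164. The comparison was defined by the sample titles and took 6 of the 9 libraries of the study, 3 titled siR739 (replicates 7, 8 and 9) and 3 titled siR164 (replicates 1, 2 and 3). It covered 719 of the 792 positions of the GFP contig in the deposited files. The sites of the 3 siRNAs of the study, where the files hold coverage of 0 in most libraries, were left out of every library.

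All plants were of the GFP-carrying line 16C, and no group without an siRNA was analysed here. In the labels the groups differ by the siRNA alone, 22 nt long and sprayed at high pressure at 140 ng/µl of small RNA. Each library was made from 3 silenced leaves pooled in 1 tube, of which only the silenced areas were taken, 6 days after spraying. The third siRNA of the study, siR386, entered the limma fit of window shares and is otherwise described in the closing observations. The labels do not say whether replicates came from separate sprayings, and the spread that p-values rest on may therefore be technical.

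In plants, an siRNA loaded into an Argonaute protein guides it to the matching transcript. A cellular RNA-dependent RNA polymerase, RDR6, can then copy the targeted transcript into double-stranded RNA, and Dicer-like enzymes cut this into secondary siRNAs. Secondary siRNAs from parts of the transcript outside the first target are called transitive, and siRNAs of 22 nt are known as strong triggers of the process. The position of the first target on the transcript determines how much of the transcript lies 5′ and 3′ of it. The siR164 site lies near the 5′ end of the contig and the siR739 site near its 3′ end. With the siR386 site between them, the sites left 4 stretches, of 163, 197, 329 and 30 positions from 5′ to 3′. Sequences of the siRNAs and of GFP were not used here.

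The measured value was read coverage, the number of reads of any length and either strand that cover a position, not divided by library size. Coverage summed over the 719 positions was 13047, 6511 and 8554 in siR739 replicates 7, 8 and 9, and 123564, 37219 and 53991 in siR164 replicates 1, 2 and 3. If every read were 22 nt long, this would be 296 to 593 reads after siR739 and 1692 to 5617 reads after siR164, so shares were less precise after siR739. A stretch with no read allows up to 3 reads, which is 0.506% to 1.01% of a siR739 library and 0.0534% to 0.177% of a siR164 library, for counting error only. The number of sequenced reads per library was not analysed here, so raw coverage could not be scaled to it.

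Raw small RNA coverage of the transgene was lower in siR739 libraries than in siR164 libraries, but by very different amounts along the transgene. Mean coverage was 18.1, 9.06 and 11.9 reads per position in siR739 replicates 7, 8 and 9, and 172, 51.8 and 75.1 in siR164 replicates 1, 2 and 3. The highest siR739 library thus lay below the lowest siR164 library. The means were 13.03 ± 4.65 after siR739 and 99.6 ± 63.7 after siR164 (SD, n = 3 each), a 7.64-fold higher mean after siR164. Without siR164 replicate 1 it was 4.87-fold higher. On log2(coverage + 1) the difference siR739 minus siR164 was −2.71 (SE 0.57, exact permutation p = 0.1, two-sided). With 3 libraries against 3, p cannot go below 0.1, and this holds for every exact test given here.

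Before the siR164 site the raw coverage of both groups was low and overlapped. Positions 1 to 163 had 2.31, 3.24 and 2.20 reads per position in siR739 replicates 7, 8 and 9, against 5.67, 2.96 and 1.44 in siR164 replicates 1, 2 and 3. All 3 siR739 libraries lay inside the range of the siR164 libraries, with a log2 difference of −0.17 (SE 0.44, adjusted exact p = 0.8). Without siR164 replicate 1 the direction turned, to a log2 difference of 0.19. Between the siR164 and siR386 sites the libraries separated, with 8.87, 3.86 and 7.42 reads per position after siR739 and 160, 44.8 and 70.9 after siR164. The siR164 mean was 13.7-fold higher in this stretch, 8.61-fold without siR164 replicate 1. The log2 difference was −3.45 (SE 0.61, adjusted exact p = 0.2).

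Between the siR386 and siR739 sites, coverage was 31.7, 15.1 and 19.3 reads per position after siR739 and 273, 83.8 and 119 after siR164. The groups did not overlap there either, and the siR164 mean was 7.20-fold higher, 4.61-fold without siR164 replicate 1 (log2 difference −2.68, SE 0.58, adjusted exact p = 0.2). Past the siR739 site, at positions 763 to 792, coverage was 16.8, 8.30 and 13.1 reads per position after siR739 and 45.7, 11.2 and 20.9 after siR164. The groups overlapped in these last 30 positions, with a log2 difference of −0.81 (SE 0.62, adjusted exact p = 0.4). The siR164 mean was 2.04-fold higher there, 1.26-fold without siR164 replicate 1.

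In windows of about 25 nt the ratio of the siR164 mean to the siR739 mean followed the same course. It lay between 0.718 and 3.80 in the 7 windows before the siR164 site, where the last window, next to that site, held the highest value. It was 7.42 just past the site, reached 19.2 in window 314–338 and was 12.3 in the last window before the siR386 site. From there it lay between 4.12 and 9.46 up to the siR739 site, with the lowest value in the last window. Without siR164 replicate 1 it was 11.8 in window 314–338 and lay between 2.61 and 5.98 from the siR386 site to the siR739 site. The plot of raw coverage and shares along the contig shows these profiles by library.

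**Figure D1:**
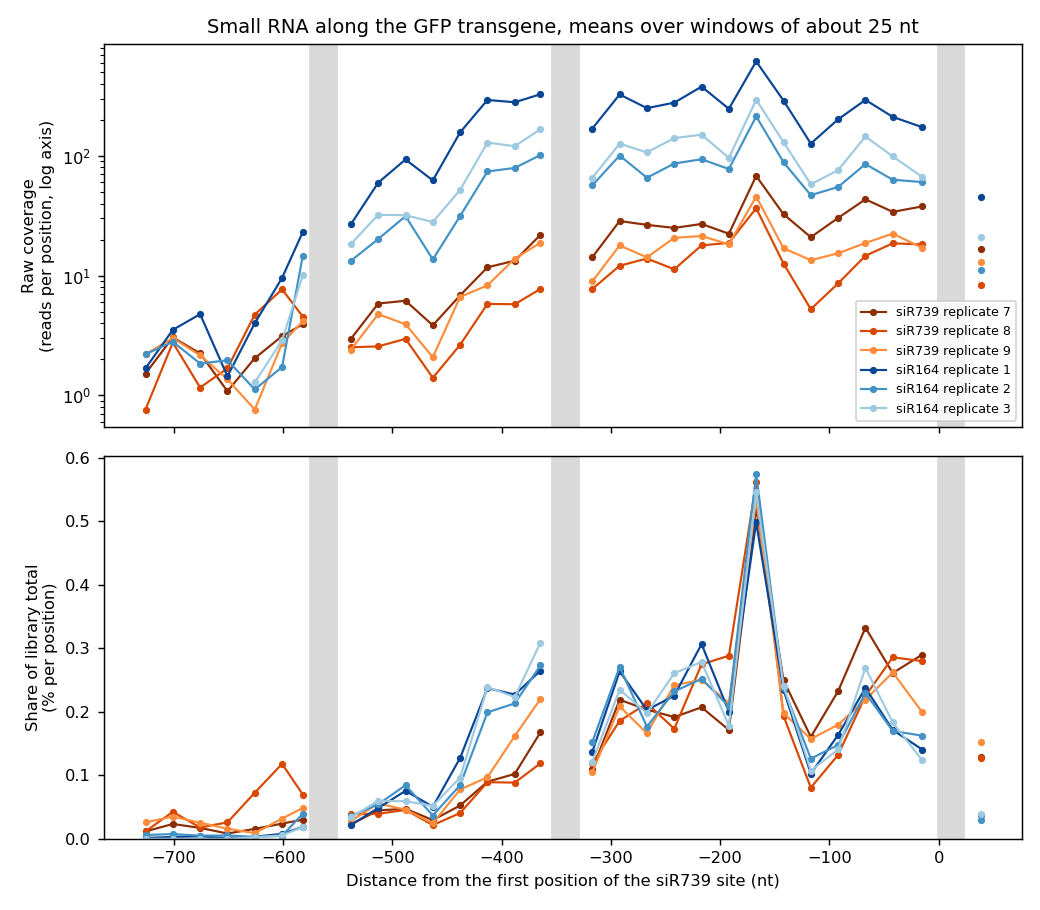
Raw coverage (top, reads per position, log axis) and share of the library total (bottom, % per position) of the 3 siR739 and 3 siR164 libraries, as means over windows of about 25 nt, against the distance from the first position of the siR739 site. Grey bands are the left-out sites, and the first 4 windows of siR164 replicate 3, with coverage of 0, have no point on the log axis; siR739 libraries lie below siR164 libraries between the outer sites, while all 6 libraries share the maximum in window 560–584.

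The shape of the profile was then compared as a share of each library's own total. Coverage after siR739 lay further towards the 3′ end of the transgene in every library. The first 50% of coverage, counted from the 5′ end, was reached at positions 572, 557 and 557 in siR739 replicates 7, 8 and 9, and at positions 517, 524 and 518 in siR164 replicates 1, 2 and 3. The groups did not overlap, and the means were position 562 ± 8.66 after siR739 and 520 ± 3.79 after siR164 (SD, n = 3 each), a difference of 42.3 nt (SE 5.46, adjusted exact p = 0.1 over the 3 quantiles). The first 25% of coverage was reached at positions 462, 446 and 441 after siR739 and 380, 410 and 381 after siR164. This quantile lay 59.3 nt further 3′ after siR739 (SE 11.7, adjusted exact p = 0.1). With 22 further positions left out on each side of the sites, the shift was 23.7 nt for this quantile and 28 nt for the 50% quantile.

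The first 75% of coverage was reached at positions 668, 656 and 642 after siR739, and at position 591 in each of the 3 siR164 libraries. This quantile lay 64.3 nt further 3′ after siR739 (SE 7.51, adjusted exact p = 0.1), and 34.3 nt with the wider left-out stretches. The coverage-weighted mean position was 546, 519 and 524 after siR739 and 503, 505 and 506 after siR164. It too was further 3′ in every siR739 library, by 24.9 nt (SE 8.33, exact p = 0.1). This shift was 13.8 nt with the wider left-out stretches (exact p = 0.2), 43.6 nt with each library's mean over its first 100 positions subtracted as a background, and 37.6 nt between the outer sites alone. At the 5′ end the cumulative curves of the siR739 libraries also lay higher than those of the siR164 libraries.

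**Figure D2:**
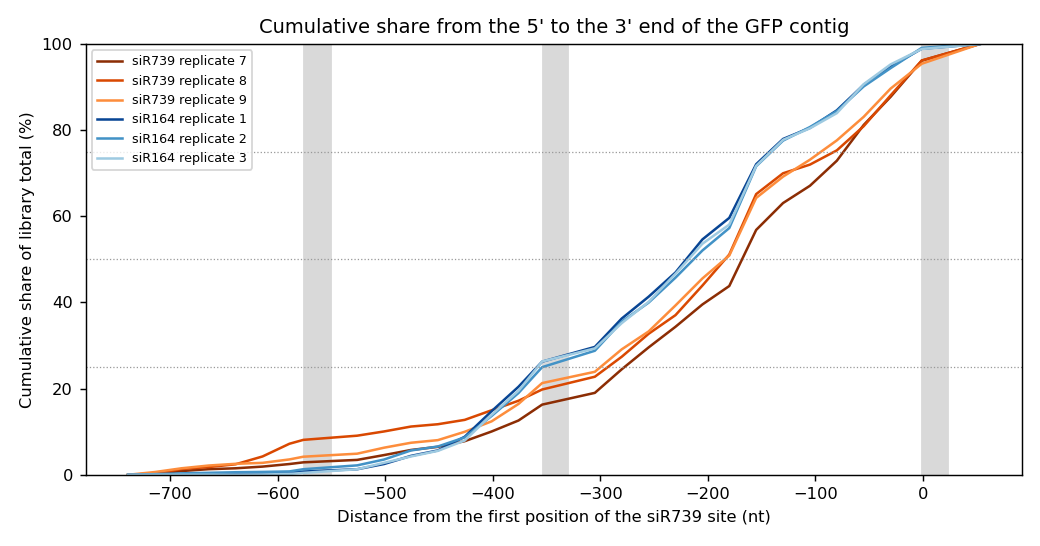
Cumulative share of the library total (%) from the 5′ end, against the distance from the first position of the siR739 site, for the 3 siR739 and 3 siR164 libraries. Dotted lines mark 25%, 50% and 75%, and grey bands the left-out sites; the siR739 curves reach 50% at positions 557 to 572 and the siR164 curves at positions 517 to 524.

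By stretch, siR739 libraries had a smaller share between the siR164 and siR386 sites and a larger share in the other stretches. Between these sites lay 13.4%, 11.7% and 17.1% of coverage in siR739 replicates 7, 8 and 9, against 25.5%, 23.7% and 25.9% in siR164 replicates 1, 2 and 3. The difference was −10.96 percentage points (SE 1.73, adjusted exact p = 0.1), and no siR739 library reached the siR164 range. Per position, this stretch was at 0.513 ± 0.10 times the library mean after siR739 and 0.913 ± 0.043 times after siR164 (SD, n = 3 each).

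Between the siR386 and siR739 sites the shares were 79.8%, 76.4% and 74.1% after siR739 and 72.6%, 74.1% and 72.5% after siR164. The groups differed by 3.69 percentage points (SE 1.74, adjusted exact p = 0.1), or by 2.16 without siR739 replicate 7. The difference was 8.05 percentage points with the background subtracted and 10.04 as a share of the coverage between the outer sites alone. The lowest siR739 value, 74.13%, and the highest siR164 value, 74.11%, were almost the same. The share past the siR739 site was 3.86%, 3.82% and 4.58% after siR739 and 1.11%, 0.903% and 1.16% after siR164. The means were 4.09% ± 0.43 after siR739 and 1.06% ± 0.14 after siR164 (SD, n = 3 each), a difference of 3.03 percentage points (SE 0.26, adjusted exact p = 0.1). Per position, these last 30 positions were at 0.980 ± 0.10 times the library mean after siR739 and 0.254 ± 0.033 times after siR164.

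Before the siR164 site the share was 2.89%, 8.11% and 4.197% after siR739 and 0.749%, 1.30% and 0.435% after siR164. Every siR739 library lay above every siR164 library (difference 4.24 percentage points, SE 1.59, adjusted exact p = 0.1). The difference was 2.72 without siR739 replicate 8, whose total was the lowest. The raw coverage of this stretch overlapped between the groups, as given above, while the totals by which shares are divided were smaller in every siR739 library.

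The authors' deposited table, which sums reads of 21, 22 and 24 nt and pools the libraries of each siRNA, was set beside these shares. Its values are normalized on a scale the sources do not state, and each appears to be a mean over 10 positions. Summed over all its positions, it was 7.27-fold higher after siR164 than after siR739, beside 7.64-fold for mean raw coverage. The first value includes the positions of the sites, which the second leaves out. With the sites left out, the sums of the authors' deposited table were 10188 after siR739 and 74846 after siR164. Whether sequencing depth adds to the difference in raw coverage was not tested. In the authors' deposited table, the part from the siR164 site to the siR386 site held 14.9% after siR739 and 25.4% after siR164, beside library means of 14.1% after siR739 and 25.02% after siR164. From the siR386 site to the siR739 site it was 83.3% after siR739 and 73.01% after siR164 in the authors' deposited table.

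Both ends of the contig looked different in that table. Before the siR164 site, the authors' deposited table gave 1.03% after siR739 and 1.29% after siR164, so the higher share after siR739 in coverage of all read lengths was not seen there. The first position above 0 in the siR739 column of the authors' deposited table is 75, while coverage of all lengths in positions 11 to 72 made up 1.26%, 1.74% and 2.01% of siR739 replicates 7, 8 and 9. Coverage there also stayed unchanged over long stretches, 34 positions at 3 reads in siR739 replicate 7 and 50 positions at 3 reads in siR739 replicate 9, longer than a read of 24 nt. In siR739 replicate 8 the longest such stretch before the siR164 site was 23 positions. In siR164 replicates 1, 2 and 3 it was 12, 29 and 10 positions. Only stretches with coverage above 0 were counted, and siR164 replicate 3 had coverage of 0 at 110 of the 163 positions before the siR164 site. Past the siR739 site, the authors' deposited table gave 0.802% after siR739 and 0.272% after siR164. Undoing the mean over 10 positions, a step added after the data were seen, gave 0.611% after siR739 and 0.414% after siR164 there. The authors' deposited table holds 772 positions and ends before the contig does. It therefore covers only part of positions 763 to 792, unlike the coverage shares. It also does not say which base of a read its position refers to. Its share next to a site and at the 3′ end may thus not cover the same reads as coverage does.

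**Figure D3:**
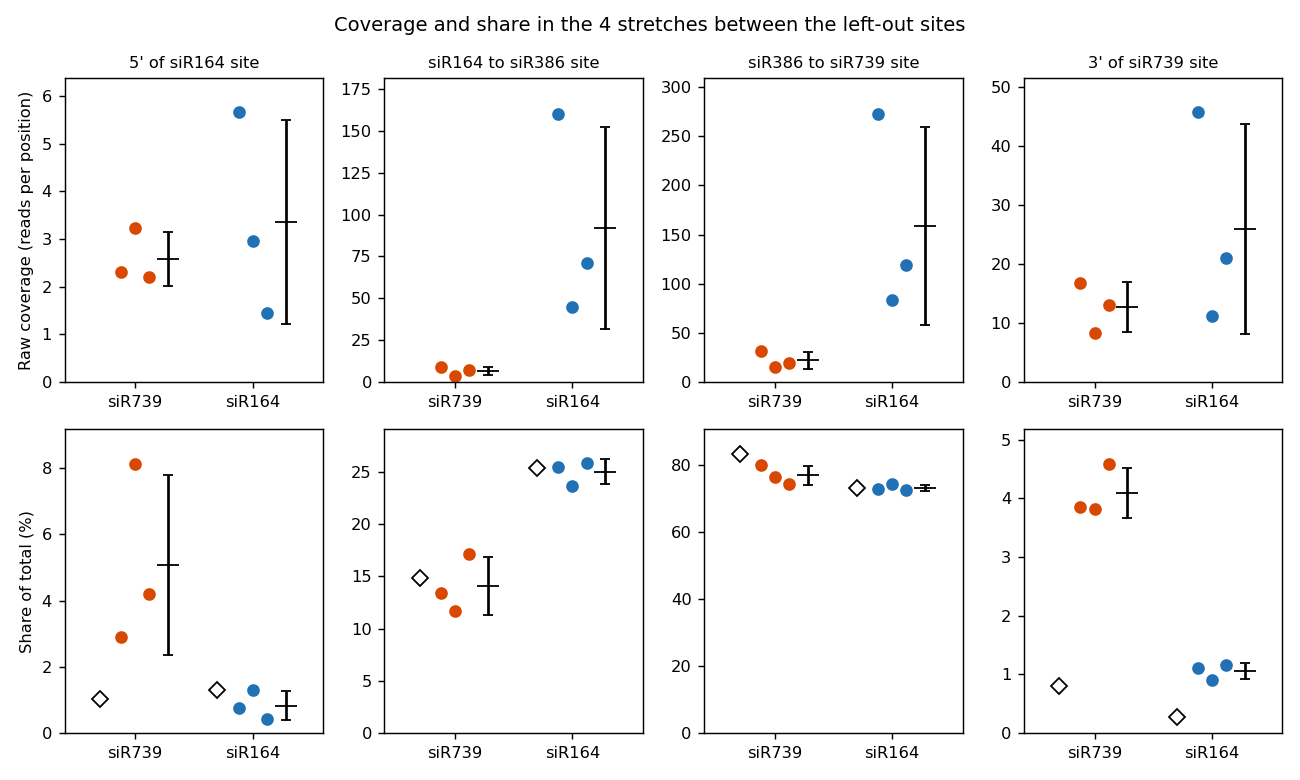
Raw coverage (top, reads per position) and share of the library total (bottom, %) in the 4 stretches between the left-out sites, with 1 point per library, siR739 left and siR164 right, and mean ± SD (n = 3) beside them. Open diamonds are shares in the authors' deposited table (21-, 22- and 24-nt reads, pooled); before the siR164 site the siR739 diamond, at 1.03%, lies below all 3 siR739 libraries.

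Window by window, the relative profiles differed at both ends and in the stretch that follows the siR164 site. The 29 windows of about 25 nt were tested with limma on log2(percent share + 0.1), with all 9 libraries in the fit, and windows with a Benjamini-Hochberg adjusted p under 0.05 were called. The fit took the same spread for all groups in a window, although siR739 libraries held fewer reads. After siR739, 9 windows had a higher share (31.0% of those tested) and 7 a lower one (24.1%). In all 16 the 3 siR739 libraries did not overlap the 3 siR164 libraries. The windows were called on these same shares, so this adds no support. Window 410–434, which was not called, did not overlap either. It held 2.73%, 2.96% and 2.62% in siR739 replicates 7, 8 and 9, and 3.42%, 3.81% and 3.04% in siR164 replicates 1, 2 and 3. Because the shares within a library sum to 100%, a higher share in 1 window lowers others and the windows are not independent. In simulated data the procedure called unchanged windows more often than its nominal rate, and by much more when the simulated rises and falls did not balance, so the number of called windows may be too high. The median log2 difference over all 29 windows was 0.0079.

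The clearest difference was next to the siR739 site itself. Window 763–792, past the site, had a log2 difference of 1.86 (SE 0.21, limma adjusted p = 2.02e-07), with the shares per library as given above. The window just 5′ of the site held 8.41%, 8.11% and 5.78% in siR739 replicates 7, 8 and 9, against 4.07%, 4.71% and 3.58% in siR164 replicates 1, 2 and 3. The lowest siR739 value lay above the highest siR164 value (log2 difference 0.82, SE 0.15, limma adjusted p = 0.000168). Window 685–709 held 6.52%, 7.14% and 6.55% after siR739 and 4.28%, 4.24% and 4.58% after siR164 (log2 difference 0.61, SE 0.13, limma adjusted p = 0.000327). These 3 windows stayed called in every alternative run on the same windows, 14 for each, with log2 differences from 1.56 to 2.13, from 0.73 to 0.99 and from 0.56 to 0.72.

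After siR739, coverage was higher at both edges of the site than a few positions away from them. At the last position before the site, coverage was 96, 41 and 39 reads in siR739 replicates 7, 8 and 9, and 2.23, 2.41 and 2.60 times that 10 positions further 5′. In siR164 replicates 1, 2 and 3 it was 209, 69 and 64 reads, 1.00, 0.972 and 0.928 times that 10 positions further 5′. At position 763, the first past the site, coverage was 82, 43 and 53 reads after siR739 and 153, 46 and 79 after siR164, which overlap although the totals of the libraries do not. It was 5.47, 4.78 and 5.30 times that 7 positions further 3′ after siR739, and 2.28, 3.83 and 3.04 times after siR164. Position 763 carried the highest mean share of any position after siR739 (0.636% ± 0.021, against 0.131% ± 0.013 after siR164, SD, n = 3 each). With 22 further positions left out on each side of the sites, 8 positions remained past the siR739 site. They held 0.739% after siR739 and 0.1195% after siR164.

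In the stretch after the siR164 site, the share increased towards the siR386 site in both groups, and 6 of 8 windows held a lower share after siR739. Window 314–338 had the lowest log2 difference of all, −1.25 (SE 0.15, limma adjusted p = 4.56e-07). It held 2.25%, 2.23% and 2.42% in siR739 replicates 7, 8 and 9, against 5.93%, 4.98% and 5.98% in siR164 replicates 1, 2 and 3. Window 339–363 held 2.55%, 2.21% and 4.04% after siR739 and 5.68%, 5.33% and 5.58% after siR164 (log2 difference −0.94, SE 0.18, limma adjusted p = 0.000168). Window 364–385, the last before the siR386 site, held 3.69%, 2.61% and 4.84% after siR739 and 5.82%, 6.00% and 6.79% after siR164 (log2 difference −0.77, SE 0.17, limma adjusted p = 0.000712). Replicate 9 was the highest siR739 library in each of these 3 windows and stayed below every siR164 library.

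Windows 289–313, 264–288 and 239–263 were also lower after siR739, with log2 differences of −0.84 (SE 0.24), −0.79 (SE 0.28) and −0.60 (SE 0.23) and limma adjusted p-values of 0.00576, 0.0222 and 0.0322. These 3 calls were lost without siR164 replicate 1 (limma adjusted p = 0.0640, 0.131 and 0.142). The call of 239–263 was also lost without siR164 replicate 2 (limma adjusted p = 0.0855) and that of 264–288 without siR164 replicate 3 (0.0580). With quantile normalization the calls of 239–263 and 289–313 were lost (limma adjusted p = 0.172 and 0.101). The first windows past the siR164 site, up to positions 213 and 238, were not called, with log2 differences of −0.029 (SE 0.37) and −0.21 (SE 0.28). Past the siR386 site, window 435–459 was the 1 further lower window (log2 difference −0.32, SE 0.13, limma adjusted p = 0.0469). This call was lost without siR164 replicate 1 or 2 or siR739 replicate 8 (limma adjusted p = 0.142, 0.149 and 0.103) and on the 6 compared libraries alone (0.0572). It was also lost with the background subtracted (0.138), with a mean coverage of at least 5 required (0.0605) and with quantile normalization (0.195).

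From the siR386 site to the siR739 site lay most of the coverage, and most windows there were not called. Of the 13 windows between the siR386 and siR739 sites, 10 were not called, with log2 differences no lower than −0.29 and no higher than 0.23. Window 560–584 held the highest share in every library, 13.02%, 14.0% and 13.4% after siR739 and 12.5%, 14.4% and 13.6% after siR164. Its log2 difference was 0.00032 (SE 0.089, limma adjusted p = 0.997). Window 510–534, the second highest after siR164, held 5.17%, 6.87% and 6.25% after siR739 and 7.66%, 6.30% and 6.96% after siR164, which overlap (log2 difference −0.20, SE 0.13, limma adjusted p = 0.227).

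At the 5′ end, 6 of 7 windows had a higher share after siR739, from position 1 to position 150. Window 26–50 held 0.583%, 1.06% and 0.877% in siR739 replicates 7, 8 and 9, and 0.0712%, 0.188% and 0% in siR164 replicates 1, 2 and 3 (log2 difference 2.43, SE 0.45, limma adjusted p = 0.000168). In raw coverage that window had 3.04, 2.76 and 3.00 reads per position after siR739 and 3.52, 2.80 and 0 after siR164, so its raw values overlapped. Window 126–150 held 0.598%, 2.95% and 0.795% after siR739 and 0.193%, 0.116% and 0.133% after siR164 (log2 difference 2.34, SE 0.48, limma adjusted p = 0.000327). Windows 1–25, 51–75, 76–100 and 101–125 had log2 differences of 1.70, 1.86, 1.75 and 1.97 (SE from 0.46 to 0.55, limma adjusted p from 0.00162 to 0.0105).

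These calls rest on low values. Window 1–25 lost its call without siR164 replicate 1 (limma adjusted p = 0.0523). With quantile normalization between libraries, the log2 differences of windows 1–25 and 76–100 were −0.063 and −0.045, and of these 6 windows 26–50 alone was still called. The sizes also depended on the pseudocount. In windows 1–25, 26–50, 51–75, 76–100 and 101–125 the log2 differences were 2.82, 3.53, 2.89, 2.91 and 2.63 with a pseudocount of 0.02, and 0.68, 1.19, 0.81, 0.71 and 1.00 with one of 0.5, and all 5 stayed called with both. The subtracted background is the mean over the positions of the first 4 windows, and these windows and window 101–125 then fell below the coverage minimum. After this subtraction, window 126–150 was not called (limma adjusted p = 0.0888). The last window before the siR164 site was not called (log2 difference 0.77, SE 0.40, limma adjusted p = 0.116).

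**Figure D4:**
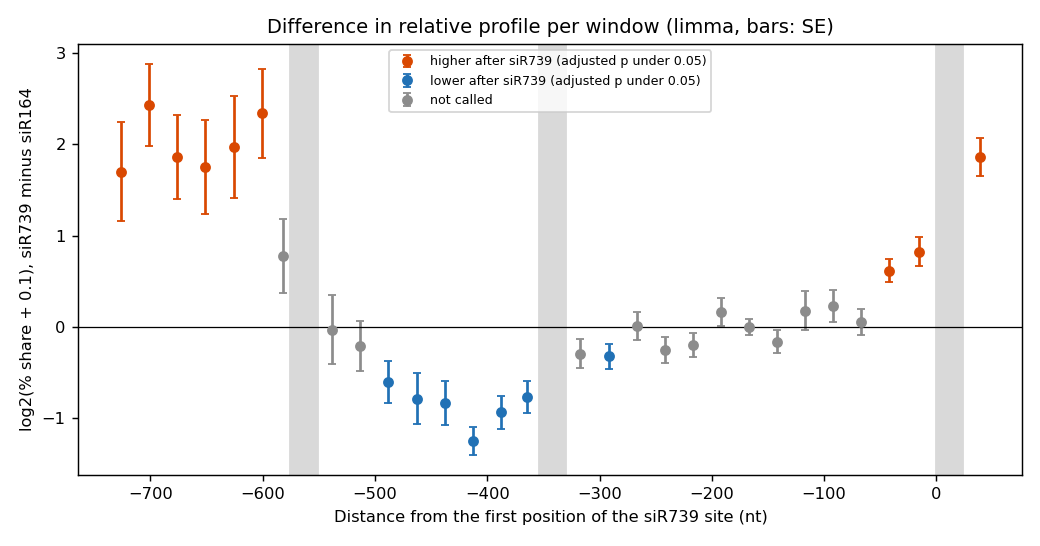
Difference siR739 minus siR164 of log2(percent share + 0.1) in 29 windows of about 25 nt, with its SE from limma, against the distance from the first position of the siR739 site. Of these windows 9 were higher (orange) and 7 lower (blue) after siR739; the difference is lowest in window 314–338 at −1.25, near 0 in the middle of the stretch before the siR739 site, and 1.86 past that site.

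At single positions, 218 of the 719 (30.3%) had a share higher in all 3 siR739 libraries than in any siR164 library, and 169 (23.5%) a share lower in all 3. Neighbouring positions share reads and were not tested singly. The positions fell into blocks. All 30 positions past the siR739 site were higher after siR739, as were 130 of 163 before the siR164 site, and in these 2 stretches none was lower. Between the siR164 and siR386 sites, 121 of 197 positions were lower and none was higher. Between the siR386 and siR739 sites, 58 of 329 were higher, 48 lower and 223 overlapped.

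Unbroken runs of at least 22 such positions numbered 8. The higher runs were positions 11–72, 81–104, 117–159, 681–727 and 763–792. Run 681–727, which stops short of the siR739 site, held 12.1%, 13.2% and 11.5% in siR739 replicates 7, 8 and 9, and 7.46%, 7.84% and 7.97% in siR164 replicates 1, 2 and 3. This run was found by its lack of overlap, so that lack adds no support. It began well before the site edge but did not continue unbroken to it. At position 728 the share was 0.175% in siR739 replicate 9 and 0.191% in siR164 replicate 2. The lower runs were positions 232–260, 300–352 and 364–385. Run 300–352 held 4.64%, 4.30% and 5.78% after siR739 and 12.04%, 9.97% and 11.5% after siR164, the widest of the lower runs.

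The fine structure of the profiles was compared through their local maxima, the 10 highest of the mean share in each group at least 22 nt apart. Of these, 6 lay within 5 nt of each other in the 2 groups. They were positions 576, 511, 442 and 471 in both groups, 682 after siR739 with 680 after siR164, and 637 after siR739 with 635 after siR164. Position 576 was the most covered after siR164, and had 78, 43 and 54 reads in siR739 replicates 7, 8 and 9, against 737, 260 and 352 reads in siR164 replicates 1, 2 and 3. Its share was 0.630% ± 0.031 after siR739 and 0.649% ± 0.051 after siR164 (SD, n = 3 each).

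The other 4 maxima of each group had no counterpart by this rule. After siR739 they were positions 763, 714 and 553 and the last position before the siR739 site. After siR164 they were positions 335, 375, 410 and 730. At position 335 the share was 0.142% ± 0.030 after siR739 and 0.353% ± 0.024 after siR164, and at position 375 it was 0.188% ± 0.067 after siR739 and 0.350% ± 0.024 after siR164 (SD, n = 3 each). Position 730 had the higher share after siR739, with 0.345%, 0.276% and 0.199% in siR739 replicates 7, 8 and 9 and 0.185%, 0.188% and 0.132% in siR164 replicates 1, 2 and 3. Position 714 had 0.238%, 0.307% and 0.234% after siR739 and 0.139%, 0.164% and 0.169% after siR164. At positions 410 and 553 the shares of the groups overlapped. Maxima were chosen for their height, so these values are a description.

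Over all windows, profiles differed more between groups than within them on average. Their distance, 50% of the summed absolute differences of window shares, lay between 11.9% and 21.4% for the 9 pairs of a siR739 with a siR164 library. It was 9.80% to 12.5% within siR739 and 5.13% to 6.46% within siR164. The mean between groups exceeded the mean within groups by 8.66 percentage points (one-sided exact test over 10 splits, permutation p = 0.1, which is its minimum). The pairs of siR739 replicate 9 with siR164 libraries, from 11.9% to 14.6%, reached into the range within siR739. Counting error is larger with the fewer reads of siR739 libraries and adds to every distance that involves one of them. Its part in these distances was not tested.

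The files do not give read lengths, but a read raises coverage at its first position and lowers it after its last. Pairs of a rise and a fall 15 to 30 nt apart were therefore summed by their distance, first with each pair weighted by the product of the rise and the fall. By this weighting the most frequent distance was 26 nt in siR739 replicates 7, 8 and 9, with 18.9%, 19.9% and 16.1% of matched steps, against 4.82%, 5.25% and 4.46% at that distance in siR164 replicates 1, 2 and 3. In the siR164 libraries it was 21 nt, the length of the main class of plant secondary siRNAs, with 6.82%, 8.58% and 9.34% after siR739 and 12.6%, 11.9% and 12.99% after siR164.

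The maximum at 26 nt after siR739 came from pairs that span the left-out siR739 site. Coverage rose by 37, 21 and 22 reads at the last position before that site in siR739 replicates 7, 8 and 9, and by −2, −2 and 1 reads in siR164 replicates 1, 2 and 3. It fell by 36, 18 and 20 reads after the first position past the site in siR739 libraries and by 12, 7 and 9 reads in siR164 libraries, and this rise and fall lie 26 nt apart. Without pairs across a left-out site, 21 nt was the most frequent distance in all 6 libraries. It then took 10.4%, 13.2% and 12.9% of matched steps after siR739 and 12.7%, 12.6% and 13.1% after siR164, which overlap. At 26 nt the shares were then 5.53%, 5.94% and 5.43% after siR739 and 4.83%, 5.27% and 4.49% after siR164.

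A weighting by the smaller of both steps, which gives large steps less weight, also gave 21 nt as the most frequent distance in all 6 libraries, with and without pairs across a site. With all pairs that distance took 8.73%, 10.9% and 11.7% after siR739 and 10.3%, 9.72% and 10.9% after siR164. The second weighting and the leaving out of pairs across a site were both added after the first result had been seen. Steps of different reads can match by coincidence, both strands are counted together, and none of these shares was tested.

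**Figure D5:**
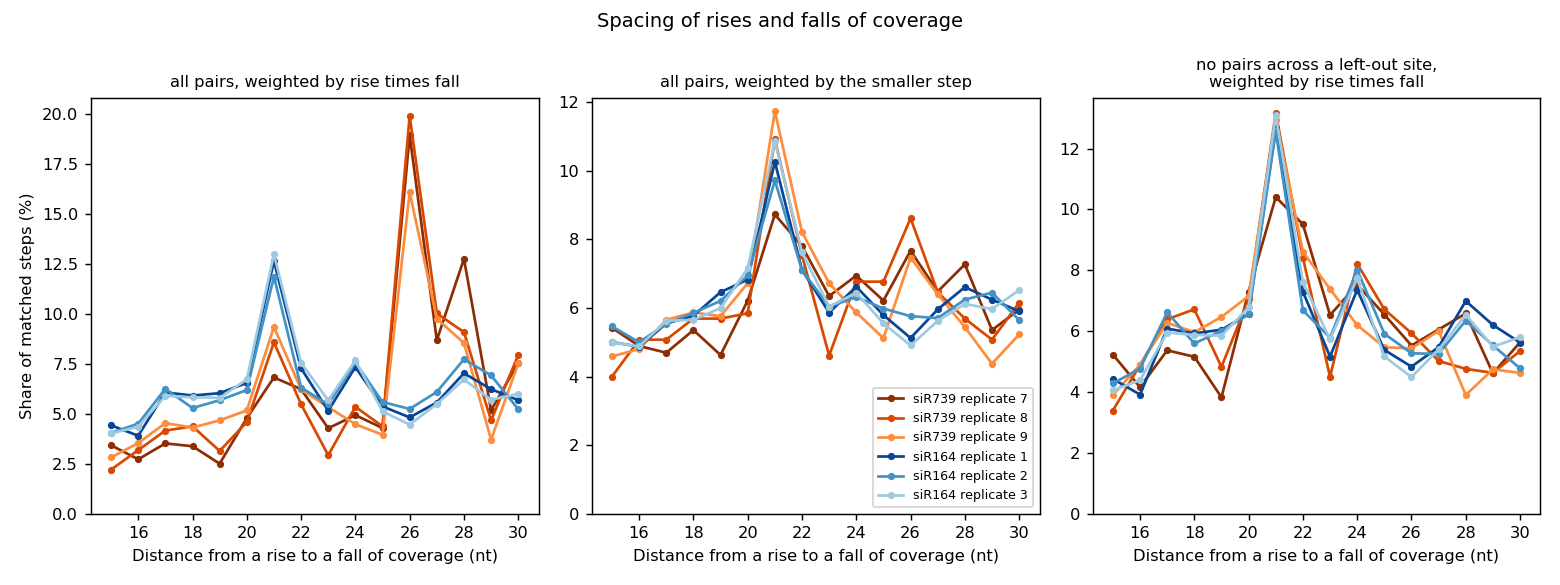
Share of matched steps (%) by the distance from a rise of coverage to a later fall (nt) in the 3 siR739 and 3 siR164 libraries, for all pairs weighted by the product of both steps (left) or by the smaller step (middle), and by the product without pairs across a left-out site (right); the middle and right versions were added after the left one was seen. On the left the siR739 libraries have their maximum at 26 nt, while in the middle and on the right all 6 libraries have it at 21 nt.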

How the data were processed

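Per the file headers, the authors deposited 1 file per library with a whole-number coverage signal for intervals of a GFP contig of 792 nt. The file names state that reads of all lengths were included. The submitters' processing notes name Bowtie2, without a version, and trimming is not described. A second deposited table holds normalized signal with 1 pooled column per siRNA for 21-, 22- and 24-nt reads, whose scaling is not stated. The labels' protocols name mirVana for extraction and the TrueQuant SmallRNA kit for library preparation. The number of value columns left unmapped was 0.

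Intervals were converted to positions counted from 1, and positions 164 to 188, 386 to 409 and 739 to 762 (73 in all) were left out. Windows of 25 nt began at the first kept position of each stretch, and a last piece under 13 nt was joined to the window before it. Those with at least 1 read of mean coverage entered limma 3.58.1 (R 4.3.3, trend) on log2(percent share + 0.1), contrast siR739 minus siR164, with all 9 libraries in the fit. This step was checked on simulated data, where unchanged windows were called more often than the nominal rate. The first simulation, in which the changes did not balance, gave more such calls and was then replaced by a balanced one; both were run in the end. Single values per library were compared with two-sided exact permutation tests over 20 assignments, with Benjamini-Hochberg adjustment over 4 stretches or 3 quantiles. The comparisons of the groups used no count model or binomial interval, since overlapping positions share reads. Steps into or out of a left-out stretch were not counted, while step pairs across one were. Single-position values of the pooled table assume that each entry is the mean of a position and the 9 after it and that the first 9 positions are at 0. Replicate pairs within a group had a chi-square per degree of freedom of 0.539 to 1.28 over windows, at sums that differed 1.31- to 3.35-fold. This chi-square took window coverage divided by 22 as read counts. Reads can span windows, so these counts are not independent and the values are a description. No files were identical, and all libraries were kept.

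Named windows were the 3 with the highest share in each group and up to 8 called windows with the largest log2 difference in each direction. The last window before and the first windows past the siR164 site, and window 410–434, were named after their values were seen. Members, stretches and rules were chosen with earlier results of these data known. Unchanged stretches, ratios at site edges, raw ratios per window and without single libraries, the leaving out of 2 libraries together, the second weighting of steps and the leaving out of step pairs across a site were added after the data were seen. Alternatives changed the left-out stretches, background, windows, pseudocount, filter, normalization, libraries and table.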

Additional observations from a re-analysis of the deposited data

Results flagged for a closer look

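The left-out stretches held coverage in 3 of the 6 libraries, a signal in data that the comparisons did not use. In siR739 replicate 7 it reached 5 reads within the last 3 positions of the siR164 stretch, and in siR739 replicate 8 it reached 11 reads at the first position of that stretch. In siR164 replicate 1 it reached 40 reads at the last position of the siR164 stretch and 637 reads within the last 2 positions of the siR386 stretch, where the other 5 libraries were at 0. The sum in the siR164 stretch equalled 0.0919% of the total of siR739 replicate 7, 0.382% of that of siR739 replicate 8 and 0.0320% of that of siR164 replicate 1. The sum in the siR386 stretch equalled 0.995% of the total of siR164 replicate 1.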

How the results depend on the processing

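No paired analysis was possible because siR739 and siR164 libraries share no replicate numbers. Leaving out 1 library at a time gave 8 to 11 higher and 3 to 8 lower windows, with 3 lower windows without siR164 replicate 1, and the same number when siR739 replicate 8 was left out as well (chosen after seeing the data). The log2 difference in raw coverage before the siR164 site lay between −0.53 and 0.19 over these settings, and was 0.19 without siR164 replicate 1, 0.27 with the left-out stretches widened by 22 nt and 0.42 with medians over positions. Higher windows numbered 3 with the mean of positions 1 to 100 subtracted (24 tested), where the windows of those positions fell below the coverage minimum. The number was 2 between the outer sites (21 tested), 3 with a mean coverage of at least 5 (23 tested) and 4 with quantile normalization. Between the outer sites and with the minimum of 5, the 6 higher windows before the siR164 site were not among those tested. Windows of 15 nt gave 15 higher and 11 lower of 47, and windows of 50 nt gave 4 lower of 15. In the authors' deposited table the siR739 minus siR164 share was −0.26 percentage points before the siR164 site, 10.3 between the siR386 and siR739 sites and 0.53 past the siR739 site as deposited. As single-position values in the authors' deposited table, an alternative chosen after seeing the data, these were −0.19, 10.3 and 0.20. That table covers the stretch past the siR739 site only in part. Windows 1–25 and 76–100 turned to −0.063 and −0.045 with quantile normalization. The difference in window 560–584, near 0, turned to −0.055 without siR164 replicate 1, −0.029 without siR739 replicate 8 and −0.084 without both, over a range of −0.055 to 0.046 without 1 library. The most frequent distance between rises and falls after siR739 was 26 nt with steps weighted by their product and 21 nt when weighted by the smaller step, without pairs across a left-out site, or with both, all added after the first result was seen. After siR164 it was 21 nt in each. Apart from the step pairs across a site and the windows no longer tested, the cause of these changes was not tested. With fewer windows tested, fewer could be called. The level, the quantiles, the mean position, the profile distance and the share between the siR164 and siR386 sites kept their direction in every alternative run, at sizes down to 23.7, 28 and 34.3 nt for the quantiles and 13.8 nt (exact p = 0.2) for the mean position with the wider left-out stretches, and their exact tests cannot pass 0.05 in any. The few reads after siR739 limit shares of low windows most.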

Other observations

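Libraries of the third siRNA, siR386, whose site lies between the other sites, had values between the groups in some measures, next to siR739 in others and outside both in others. The share past the siR739 site was 4.09% ± 0.43 after siR739, 1.92% ± 0.43 after siR386 and 1.06% ± 0.14 after siR164 (SD, n = 3 each). The share between the siR164 and siR386 sites was 14.1% ± 2.76, 16.0% ± 1.14 and 25.02% ± 1.17 in the same order. The position at which 50% of coverage was reached was 562 ± 8.66, 561 ± 1.15 and 520 ± 3.79, and that of the first 75% was 655 ± 13.01, 633 ± 1.73 and 591 ± 0. The stretch 5′ of the siR164 site held 5.07% ± 2.72 after siR739, 1.18% ± 0.31 after siR386 and 0.826% ± 0.44 after siR164. Between the siR386 and siR739 sites lay 76.8% ± 2.88 after siR739, 80.9% ± 1.53 after siR386 and 73.1% ± 0.89 after siR164, and the coverage-weighted mean position was 530 ± 14.4, 533 ± 3.90 and 505 ± 1.39 in the same order. Raw coverage before the siR164 site averaged 2.58 ± 0.57, 1.96 ± 0.76 and 3.36 ± 2.14 reads per position in that order. The longest stretch of unchanged coverage above 0 there was 40, 18 and 51 positions in siR386 replicates 4, 5 and 6. Such long stretches were thus not particular to siR739. With steps weighted by their product, rises and falls were most often 21 nt apart in siR386 replicates 4 and 5 and 26 nt apart in siR386 replicate 6, and 21 nt apart in all 3 when weighted by the smaller step or without pairs across a left-out site. Differences from siR386 were not tested here.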
